A study of Oryctolagus cuniculus with 6 samples.

Results

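Keratins and epithelial junction genes were followed in RNA-seq counts from injured rabbit facial nerves. The set was defined by gene symbol and held 10 genes: KRT5, KRT14 and TP63 as basal epithelial genes, KRT8, KRT18 and KRT19 as simple epithelial keratins, and EPCAM, CDH1, DSP and PKP1 as genes of cell adhesion and junctions. Of the 17396 genes in the files, 9 belonged to it. KRT19 is entered there as LOC100344434 and was named from RefSeq's rabbit annotation of mOryCun1.1. No row could be matched to KRT14, which was not analysed here, so the basal genes were represented by KRT5 and TP63.

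All samples came from wild-type male Japanese white rabbits, and in every animal the main trunk of the left facial nerve had been cut. The FNI group (facial nerve injury, 3 libraries) had the transection alone. In the FNI+I-125 group (3 libraries), a seed of iodine-125, a radioactive source used in brachytherapy, had in addition been placed near the nerve while the skin was sutured. Nerves of both groups were taken after facial function had been scored on day 14, and sham-operated animals were not analysed here. With 3 rabbits and 3 libraries per group, each library was taken as 1 animal, a few months old. The labels name more than 1 sequencer without saying which library was run on which, so a sequencing batch could not be examined. The genes were proposed with the levels of these libraries in view, so the differences between libraries are given as a description, with no test.

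Keratins are the intermediate filament proteins of epithelial cells. They pair a type II chain with a type I chain: KRT5 with KRT14 in the basal cells of stratified and glandular epithelia, and KRT8 with KRT18 in simple, single-layered epithelia. TP63 encodes the transcription factor p63, which maintains basal epithelial cells. Filaments are anchored at desmosomes by desmoplakin (DSP) and plakophilin 1 (PKP1), while E-cadherin (CDH1) holds cells together at adherens junctions and EPCAM is a surface adhesion protein of simple and glandular epithelium. A peripheral nerve itself holds Schwann cells, axons, fibroblasts, vessels and the perineurial sheath, and it is not an epithelial tissue, but the trunk of the facial nerve runs through the parotid salivary gland and below the skin behind the ear.

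Sequencing depth was alike: each library held between 16031151 and 16798012 counts, and the group medians were 16682366 for FNI and 16511289 for FNI+I-125. Levels are expressed in CPM, meaning counts scaled to the TMM-normalized library size and multiplied by 1e6, or as log2(CPM + 1), where 1 is the pseudocount. The Schwann cell genes expected of a nerve were found in all 6 libraries: PRX (periaxin), a protein of myelinating Schwann cells, ran from 12.7 to 2832 CPM, and SOX10, a transcription factor of the Schwann cell lineage, from 54.3 to 276 CPM.

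The epithelial genes separated the libraries rather than the groups. FNI replicate 1 and FNI+I-125 replicate 3 were the highest libraries for 7 of the 9 genes, whereas 4.75% of all 14003 genes tested had this pair on top. The genes and the pair were both picked with these levels in view, so the 2 shares are a description only. The summed level of the 9 genes was 1330 CPM in FNI replicate 1 and 1966 CPM in FNI+I-125 replicate 3, against 391 and 180 CPM in the remaining FNI libraries (replicates 2 and 3) and 37.8 and 44.1 CPM in the remaining irradiated libraries (replicates 1 and 2). In FNI+I-125 replicate 1 all 9 genes lay under 10 CPM, and in FNI+I-125 replicate 2 this held for 8 of them. In FNI replicate 3, which had no seed, it held for 7, all but CDH1 (144 CPM) and DSP (28.5 CPM). In such bulk samples, fewer cells of a type and less RNA per cell cannot be told apart.

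**Figure D1:**
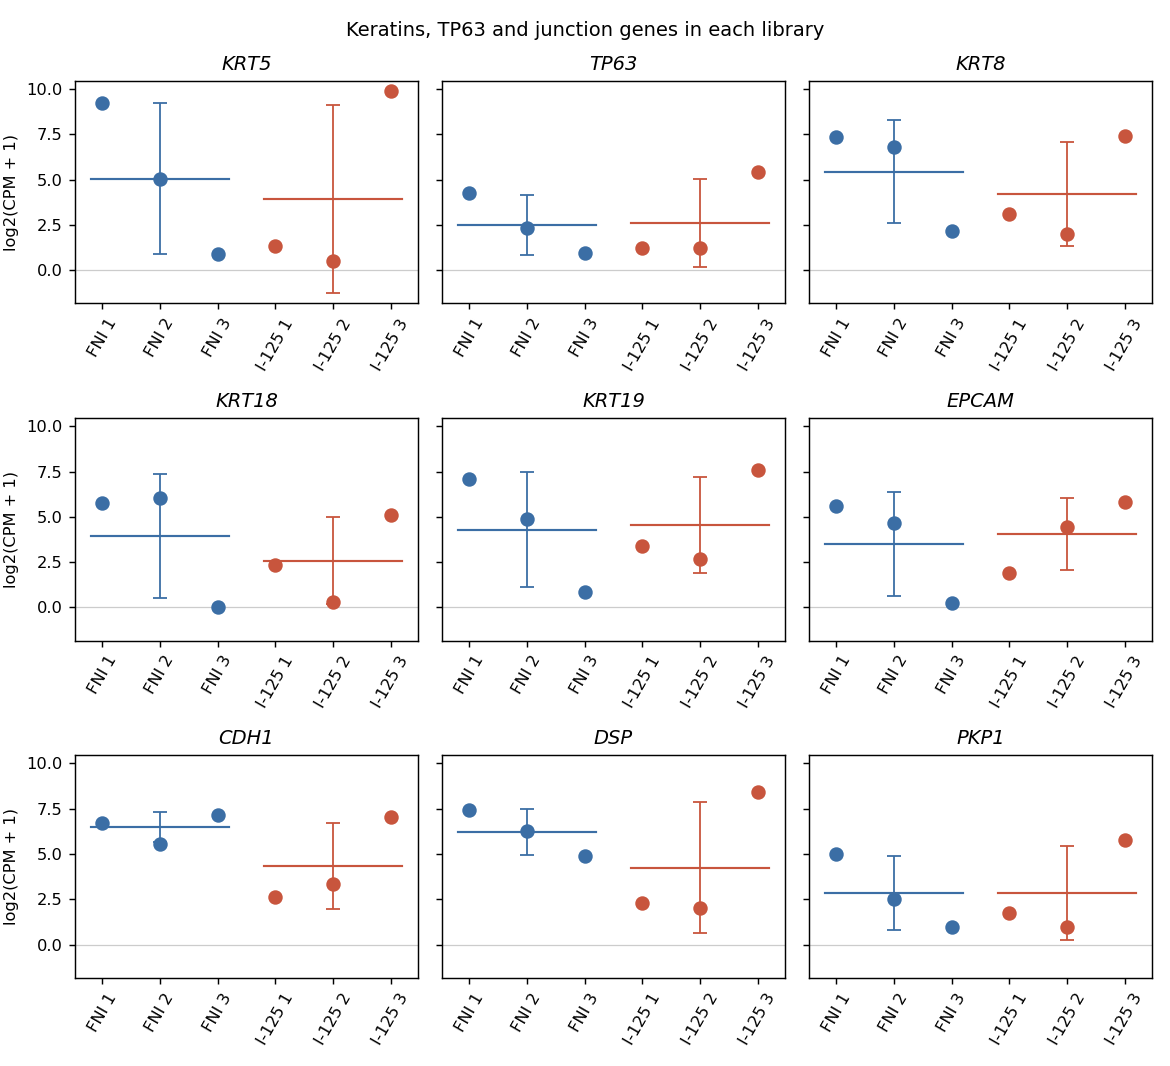
Level of each gene, as log2(CPM + 1), in the 3 FNI libraries (blue) and the 3 FNI+I-125 libraries (red, I-125 1 to 3). Points are single libraries, horizontal lines are group means and bars show 1 SD. KRT5 spans 9.38 log2 units, with FNI replicate 1 and FNI+I-125 replicate 3 at the top, and CDH1 is highest in FNI replicate 3.

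Among the basal genes, KRT5 had 10309, 501 and 15 counts in FNI replicates 1, 2 and 3, or 603, 31.5 and 0.886 CPM. For the seed-implanted nerves the counts were 24, 7 and 16153 in replicate order, or 1.57, 0.426 and 947 CPM. One library of each group was thus very high, and the other libraries of the same group were lower by large factors: the highest library exceeded the lowest 681-fold within the FNI group and 2225-fold within the FNI+I-125 group. TP63 stood at 18.3, 4.03 and 0.945 CPM in the FNI libraries and at 1.31, 1.34 and 42.3 CPM in the FNI+I-125 libraries. Its libraries followed nearly the same order as those of KRT5, with a smaller range of 44.8-fold.

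Of the simple epithelial keratins, KRT8 and KRT18 were high in a further library. KRT8 stood at 161, 109 and 3.54 CPM in FNI replicates 1, 2 and 3, and at 7.64, 3.04 and 173 CPM in FNI+I-125 replicates 1, 2 and 3. KRT18, its filament partner and its neighbour on the mOryCun1.1 assembly, stood at 54.0, 65.5 and 0 CPM against 3.98, 0.243 and 33.6 CPM. FNI replicate 2, which was low in KRT5, was therefore close to the highest libraries in KRT8 and was the highest library in KRT18. The 0 counts of KRT18 in FNI replicate 3 allow up to 0.177 CPM, which places FNI replicate 2 at least 370-fold higher on this floor of 3 counts in that library. KRT19, a type I keratin of ducts and other simple epithelia, stood at 137, 28.8 and 0.827 CPM against 9.34, 5.41 and 187 CPM, an order of libraries nearer to that of KRT5 than to that of KRT18.

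The junction genes followed the keratins only in part. PKP1, a desmosomal protein of stratified epithelia, stood at 31.1, 4.78 and 0.945 CPM in the FNI libraries and at 2.28, 0.973 and 54.8 CPM in the FNI+I-125 libraries, much as TP63 did. DSP, which is needed in every desmosome, stood at 173, 76.6 and 28.5 CPM against 3.92, 3.04 and 342 CPM. FNI replicate 3 kept 28.5 CPM of DSP although KRT5, KRT19 and EPCAM lay under 1 CPM there.

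EPCAM stood at 47.8, 24.7 and 0.177 CPM in the FNI libraries, the last value resting on 3 counts. In the FNI+I-125 libraries it stood at 2.68, 20.5 and 54.8 CPM. FNI+I-125 replicate 2, which had the lowest KRT5, KRT8 and DSP of all libraries, thus carried EPCAM at a level near that of FNI replicate 2. The ratio of EPCAM to KRT8 counts was 6.74 in this library and 0.05 to 0.35 in the other 5. DSG2, the desmoglein with the widest tissue range, stood out in the same way, at 10.2 CPM in FNI+I-125 replicate 2 against 2.68 CPM in FNI+I-125 replicate 1 and 0.413 CPM in FNI replicate 3, and it was the gene with the profile closest to EPCAM (root mean square distance 0.38 log2 units over the 6 libraries). DSG2 was singled out after its values had been seen.

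CDH1 differed most from the rest. It stood at 105, 46.4 and 144 CPM in FNI replicates 1, 2 and 3, and at 5.09, 9.18 and 132 CPM in FNI+I-125 replicates 1, 2 and 3. Its highest library was FNI replicate 3, in which 5 of the 9 genes had their lowest value. The ratio of CDH1 to KRT8 counts was 40.6 there and 0.425 to 3.02 in the other 5 libraries. FNI replicate 3 was also the library with the most myelin RNA: PRX stood at 2832 CPM, against 441 and 193 CPM in FNI replicates 1 and 2, and all 15 genes of a list of myelinating Schwann cell markers were highest in it. E-cadherin is known from the junctions that myelinating Schwann cells form between layers of their own membrane. In FNI+I-125 replicate 3 the reverse was seen, with CDH1 at 132 CPM beside the lowest PRX of all libraries, 12.7 CPM, and high keratins. The part of Schwann cells and of epithelial cells in the CDH1 level was not tested.

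**Figure D2:**
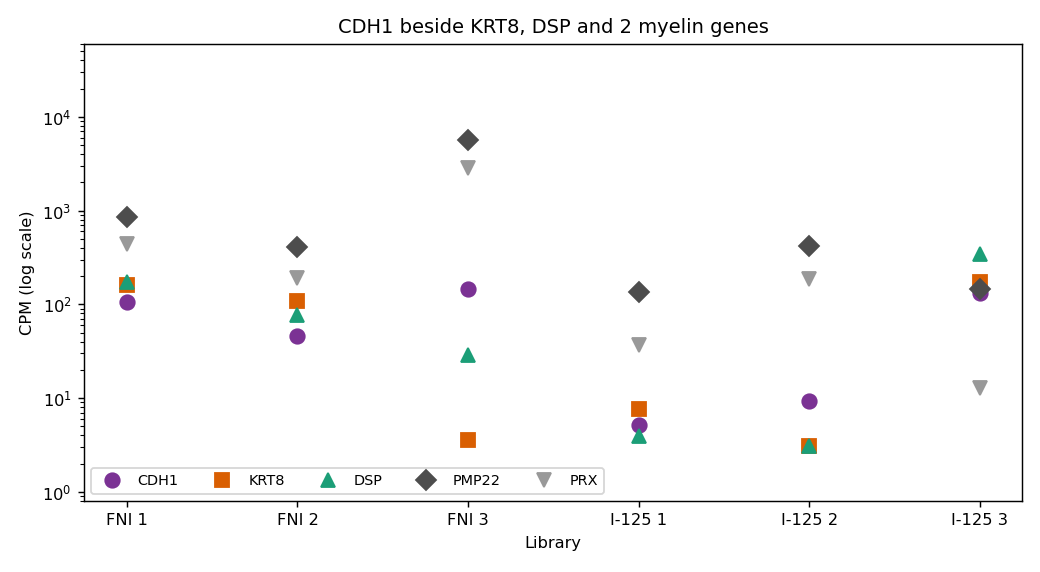
CPM on a log scale of CDH1, KRT8 and DSP beside the myelin genes PMP22 and PRX in each library (I-125 1 to 3 are the FNI+I-125 libraries). In FNI replicate 3, CDH1 (144 CPM) is high with PRX (2832 CPM) while KRT8 is at 3.54 CPM, and in FNI+I-125 replicate 3 CDH1 (132 CPM) is high with KRT8 (173 CPM) while PRX is at 12.7 CPM.

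Basal and simple epithelial genes were then compared between libraries. The index was the mean log2(CPM + 1) of KRT5 and TP63 minus that of KRT8, KRT18 and KRT19. Only its differences between libraries can be read, since gene length enters its level. It was 0.01, -2.24 and -0.08 for FNI, by replicate number, while the seed-implanted nerves had -1.65, -0.80 and 0.96. FNI replicate 2 had the lowest index and FNI+I-125 replicate 3 the highest, and the groups overlapped, with a mean of -0.77 ± 1.27 for FNI and of -0.50 ± 1.33 for FNI+I-125 (SD, n = 3 each). The difference of 0.27 between the group means was smaller than either SD. In FNI replicate 3 the index compares levels close to 0 on both sides, where the pseudocount compresses it. The basal means of FNI+I-125 replicates 1 and 2, 1.28 and 0.87, are low as well, so the index is compressed there too.

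The share of KRT5 in the KRT5 and KRT8 counts needs no pseudocount, and it ordered the libraries differently from the index, with FNI replicate 3 far below FNI replicate 1. KRT5 made up 78.9% of the KRT5 and KRT8 counts in FNI replicate 1 (95% Wilson interval 78.2% to 79.6%) and 84.6% in FNI+I-125 replicate 3 (84.0% to 85.1%). In FNI replicate 2 it made up 22.4% (20.7% to 24.2%), with 2234 counts of the pair. The other libraries had few counts of the pair: 20.0% of 75 counts in FNI replicate 3 (12.5% to 30.4%), 17.0% of 141 in FNI+I-125 replicate 1 (11.7% to 24.1%) and 12.3% of 57 in FNI+I-125 replicate 2 (6.08% to 23.2%). One library of each group was thus rich in KRT5, and the intervals of the other 4 libraries overlapped between the groups. The intervals cover counting error only, as PCR reads without molecular identifiers are not independent molecules.

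The simple keratins also shifted against each other. KRT18 made up 37.5% of the KRT18 and KRT8 counts in FNI replicate 2 (95% Wilson interval 35.7% to 39.3%), 25.1% in FNI replicate 1 (23.7% to 26.5%) and 16.3% in FNI+I-125 replicate 3 (15.1% to 17.5%). KRT19 went the other way, with 20.9% of the KRT19 and KRT8 counts in FNI replicate 2 (19.3% to 22.7%), 45.9% in FNI replicate 1 (44.5% to 47.3%) and 52.0% in FNI+I-125 replicate 3 (50.8% to 53.3%). Among the libraries with many keratin counts, the one poorest in KRT5 was thus the richest in KRT18 and the poorest in KRT19 relative to KRT8. FNI+I-125 replicate 1, with fewer counts and little KRT5, did not share this. There KRT18 made up 34.3% of 178 counts (27.7% to 41.5%) and KRT19 55.0% of 260 counts (48.9% to 60.9%).

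**Figure D3:**
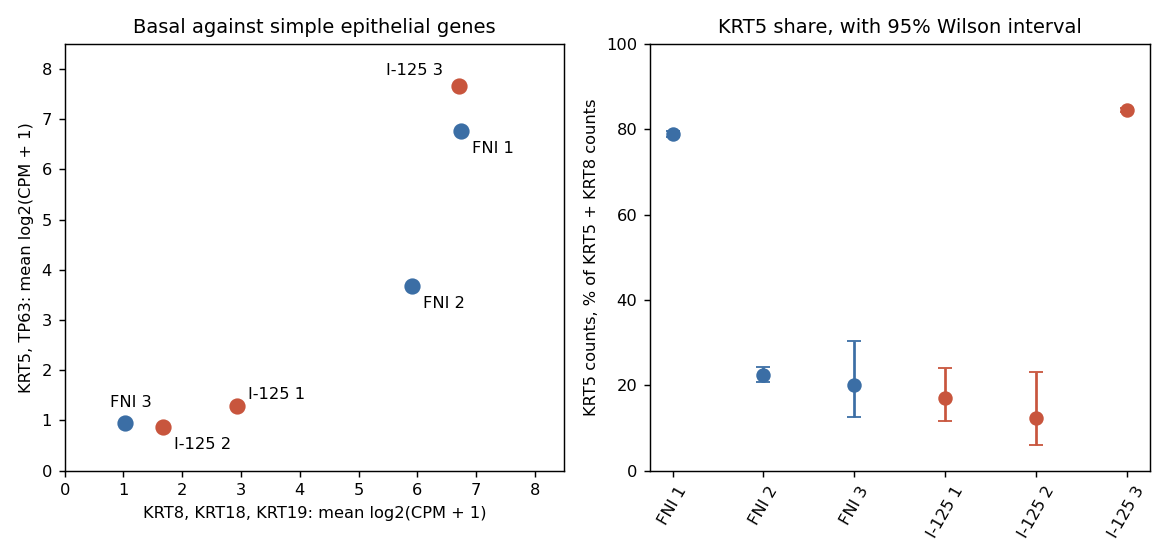
Left, mean log2(CPM + 1) of KRT5 and TP63 against that of KRT8, KRT18 and KRT19 in each library. Right, KRT5 counts as a percentage of KRT5 and KRT8 counts, with 95% Wilson intervals. FNI libraries are blue and FNI+I-125 libraries red. FNI replicate 1 and FNI+I-125 replicate 3 lie at the upper right and at 78.9% and 84.6%. FNI replicate 2 has a high mean of the simple keratins with a KRT5 share of 22.4%.

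The effect of the seed was assessed by comparing FNI+I-125 with FNI over all genes, with edgeR's quasi-likelihood test and DEGs called at an adjusted p (Benjamini-Hochberg over the 14003 genes) under 0.05 with |log2 FC| of 1.5 or more. All 9 genes passed the filter on low counts. None was called higher and none lower, as for all genes tested (0.0% higher, 0.0% lower). At an unadjusted p under 0.05 the count was 0 of 9, where 17.0% of all genes tested had such a p. DESeq2 called 0 of the 8 genes to which it gave an adjusted p, with 1.76% of its genes called higher and 1.22% lower. It gave KRT5 no p. With limma-voom 0 of 9 were called, as for all genes (0.0% higher, 0.0% lower). The count at an unadjusted p under 0.05 was 0 with DESeq2, against 22.5% of all its genes, and 0 with limma-voom, against 15.4%.

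For KRT5 the groups stood at 212 ± 339 and 316 ± 546 CPM (SD, n = 3 each), and the log2 fold change was 0.58 with a standard error of 2.76 (edgeR, adjusted p = 0.924). KRT18 had the lowest fold change, -1.66 with a standard error of 2.02 (edgeR, adjusted p = 0.667), from 39.8 ± 35.0 to 12.6 ± 18.3 CPM. TP63 had the highest, 0.95 with a standard error of 1.62 (edgeR, adjusted p = 0.767), from 7.76 ± 9.27 to 15.0 ± 23.7 CPM. The standard error exceeded the fold change for each of the 9 genes, so a difference of several-fold in either direction would not have been detected.

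The other fold changes lay between these values. KRT8 had -0.58 (standard error 1.73) and KRT19 had 0.28 (standard error 1.82). Among the junction genes, CDH1 had -1.01 (standard error 1.23), EPCAM 0.10 (standard error 1.56), DSP 0.33 (standard error 1.75) and PKP1 0.66 (standard error 1.73). Adjusted p-values in edgeR ran from 0.667 to 0.976. In all, 6 genes had a positive and 3 a negative fold change, with a median of 0.28 on the log2 scale against 0.01 for all genes tested. With limma-voom on the same 6 libraries the tally turned to 3 positive and 6 negative, with a median of -0.41.

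The groups overlapped for every one of the 9 genes (0 higher and 0 lower without overlap), while 27.2% of all genes tested had no overlap, 14.8% higher and 12.4% lower. The within-group SD of log2(CPM + 1) had a median of 2.72 over the 9 genes and of 0.27 over all genes tested. For KRT5 it was 4.70, and 0.0214% of the genes tested had a larger one. For CDH1, the least variable of the 9, it was 1.79, and 1.59% had a larger one. The difference between the groups took a median of 2.15% of the variance across libraries for the 9 genes, at most 35.3% for CDH1, against a median of 30.1% for all genes tested.

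For 7 of the 9 genes the direction depended on single libraries, while KRT18 (-4.26 to -1.10) and CDH1 (-3.79 to -0.48) had negative fold changes whichever library was left out. Without FNI+I-125 replicate 3, all 9 fold changes were negative, from -1.06 for EPCAM to -7.75 for KRT5, and CDH1 (-3.79) and DSP (-4.74) were lower without overlap, as were 19.8% of the genes tested in that comparison. Without FNI replicate 1, 7 of 9 were positive, up to 4.28 for KRT5. Without FNI replicate 3, KRT18 was lower without overlap, as were 17.1% of the genes tested, and the fold changes of KRT5, KRT19, EPCAM and DSP turned negative (-0.05, -0.33, -0.51 and -0.14). Without FNI replicate 2, that of KRT19 was -0.03. With both FNI replicate 1 and FNI+I-125 replicate 3 left out, which was chosen after the data had been seen, all 9 were negative and 2 (24.9% of the genes tested) were lower without overlap. The share of all genes without overlap in either direction was itself larger with fewer libraries: 37.1%, 38.5% and 33.6% without FNI replicates 1, 2 and 3, 34.8%, 38.1% and 40.7% without those of FNI+I-125, and 51.0% without both. None of these comparisons brought 1 of the 9 genes past the adjusted p threshold of edgeR.

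**Figure D4:**
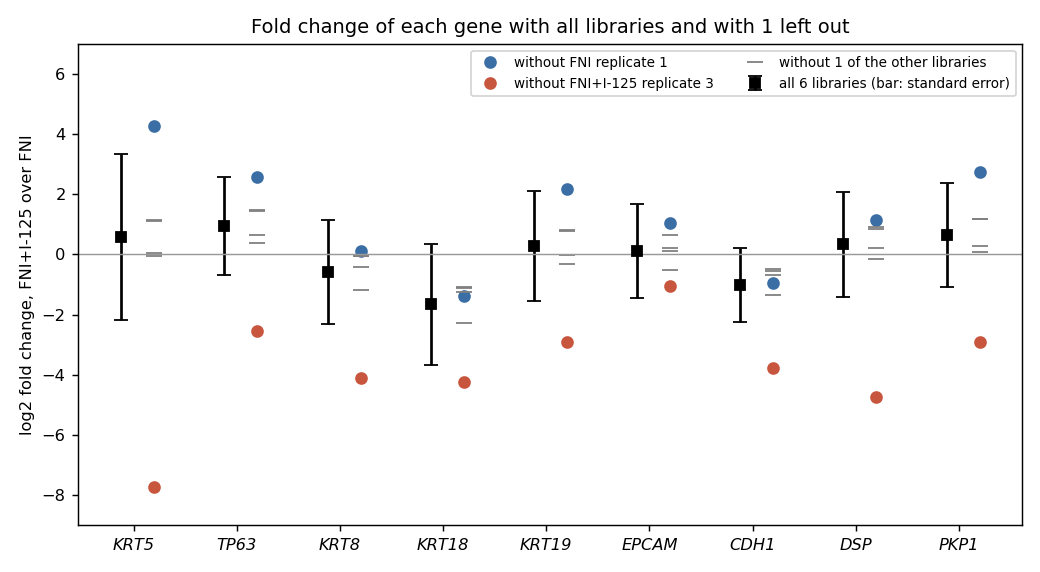
Log2 fold change of each gene, FNI+I-125 over FNI, from edgeR with all 6 libraries (black squares, bars are standard errors) and with 1 library left out (blue, without FNI replicate 1; red, without FNI+I-125 replicate 3; grey, without 1 of the others). The fold change of KRT5 is 0.58 with all libraries, 4.28 without FNI replicate 1 and -7.75 without FNI+I-125 replicate 3.

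Other epithelial genes were read from lists written from general knowledge. In 9 lists of keratins, junctions, basal adhesion, epithelial surface genes and transcription factors, 74 genes beside the 9 were tested. With edgeR 0 of the 74 passed the adjusted p, as for all genes tested (0.0%). The 0 called by edgeR in each list below therefore says nothing about that list. At an unadjusted p under 0.05 in edgeR there were 0 higher and 7 lower. Of all genes tested, 17.0% had such a p in either direction. DESeq2 called 2, the claudins CLDN1 (log2 fold change -1.75) and CLDN10 (-5.66), as lower, with 1.22% of its genes called lower. CLDN10 stood at 23.5, 48.9 and 1.12 CPM in the FNI libraries and at 1.11, 0.243 and 0.117 CPM in the FNI+I-125 libraries. Its groups were thus apart only by 1.12 against 1.11 CPM. CLDN1, also on the perineurial list, stood at 45.8, 43.9 and 128 CPM against 11.9, 26.7 and 27.0 CPM. Of the 74 genes, 32 had a positive and 42 a negative fold change, with a median of -0.11, and 43 had FNI replicate 1 and FNI+I-125 replicate 3 as their highest libraries. The groups did not overlap for 8 genes, all lower (12.4% of all genes tested were lower without overlap): CLDN1, CLDN10, OCLN and TJP1 of tight junctions, ITGA6, LAMA3 and DST of basal adhesion, and PPL of the desmosome and cornified envelope.

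Further keratins followed the basal pattern. KRT17, a keratin of basal and wounded epithelium, stood at 261, 8.37 and 0.295 CPM in the FNI libraries and at 1.04, 0.973 and 317 CPM in the FNI+I-125 libraries. KRT15, a basal keratin, stood at 66.1, 28.5 and 0.059 CPM against 2.35, 0 and 131 CPM. Closely related keratins can share reads, so these values are uncertain in as far as the authors' counting split them. KRT16, the remaining tested gene of the stress and basal-layer list, stayed at or under 2.92 CPM in every library, and all 3 had positive fold changes. KRT13 and KRT4, the keratin pair of mucosal epithelia, were high in the same libraries as KRT5: KRT13 stood at 146 CPM in FNI replicate 1, at 486 CPM in FNI+I-125 replicate 3 but at no more than 5.60 CPM elsewhere, and KRT4 at 68.5 and 178 CPM and at no more than 0.252 CPM elsewhere. KRT4 was removed by the low-count filter.

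KRT10, the main type I keratin of the upper epidermis, did not share this pattern and lay between 11.5 and 19.1 CPM in all 6 libraries. KRT1, its partner there, reached 4.63 CPM at most and was named after its values had been seen. Of the suprabasal and mucosal list, 3 of 11 genes with a row were tested, 2 with a positive fold change. The cornified envelope list, which marks the outer epidermis, had 18 genes with a row, of which 4 were tested (1 positive, 3 negative fold changes, 0 called). Its summed level ran from 10.3 to 81.8 CPM in the FNI group and from 11.7 to 49.5 CPM in the FNI+I-125 group, with TGM1 and KLK7 highest in FNI replicate 3, at 57.6 and 16.8 CPM. SPINK5, a protease inhibitor of stratified epithelium, was highest in FNI+I-125 replicate 3 at 16.9 CPM, and LYPD3, which was not tested, reached 14.2 CPM in the same library. Involucrin (IVL), suprabasin (SBSN) and KRTDAP, which mark cornifying cells, reached 1.58, 0.527 and 0.504 CPM at most. LYPD3 and these 3 genes were picked out after their values had been seen.

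Among simple keratins outside the set, KRT7 stood at 39.9, 10.3 and 3.96 CPM in the FNI libraries and at 0.979, 0.669 and 33.5 CPM in the FNI+I-125 libraries. KRT23 stood at 23.3, 49.9 and 0 CPM against 1.83, 1.58 and 17.9 CPM, so that FNI replicate 2 was its highest library, as for KRT18. Both fold changes were negative and neither gene was called. KRT20, an intestinal keratin, had at most 3 counts in a library and was not tested.

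In the desmosome list, 9 genes were tested and 8 of them had FNI replicate 1 and FNI+I-125 replicate 3 on top. The cadherins of stratified epithelium were the clearest: DSG3 stood at 12.3, 0.315 and 0 CPM in the FNI libraries and at 0.131, 0.730 and 42.0 CPM in the FNI+I-125 libraries. It was singled out after its values had been seen. JUP (plakoglobin), which joins desmosomes and adherens junctions in many tissues, stood at 197, 162 and 181 CPM against 84.3, 86.7 and 189 CPM, and PERP at 69.6, 26.1 and 36.6 CPM against 6.07, 12.7 and 104 CPM. PPL (periplakin), a linker of keratin filaments, behaved differently. It stood at 165, 129 and 155 CPM in the FNI libraries and at 73.5, 75.1 and 78.5 CPM in the FNI+I-125 libraries. The groups did not overlap, and 12.4% of all genes tested were lower without overlap. The log2 fold change was -0.98 (standard error 0.13, edgeR, unadjusted p = 0.000288, adjusted p = 0.280). In the list, 5 genes had a positive and 4 a negative fold change.

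Among the adherens junction genes, the catenins and vinculin, which most cell types use, varied little. CTNNB1 (beta-catenin) lay between 350 and 445 CPM, CTNNA1 (alpha-catenin) between 262 and 435 CPM and VCL (vinculin) between 247 and 430 CPM. Of the 8 genes tested, 5 had a positive fold change, 0 were called, and 4 had FNI replicate 1 and FNI+I-125 replicate 3 on top. The cadherin of basal epithelium, CDH3, which neighbours CDH1 on the mOryCun1.1 assembly, stood at 59.5, 6.17 and 2.18 CPM in the FNI libraries and at 6.20, 21.2 and 99.8 CPM in the FNI+I-125 libraries. It did not share the high value of CDH1 in FNI replicate 3, and was named after its values had been seen.

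The tight junction genes were mixed: 7 of the 15 tested had FNI replicate 1 and FNI+I-125 replicate 3 on top, as most keratins did, and 3 were highest in FNI replicate 3. A negative fold change was found for 13 of them (median -0.98), and 0 were called by edgeR, as for all genes tested. TJP1 (ZO-1) stood at 234, 217 and 623 CPM against 149, 150 and 188 CPM, and F11R at 85.1, 83.9 and 61.4 CPM against 61.0, 46.7 and 69.5 CPM. TJP1 was thus lower in all FNI+I-125 libraries. Of 8 hemidesmosome and basal adhesion genes, 5 had a negative fold change (median -0.64) and 6 were highest in FNI replicate 3. The integrin pair ITGA6 and ITGB4, which Schwann cells and perineurial cells also express, stood in FNI replicate 3 at 594 and 1614 CPM and elsewhere at no more than 348 and 718 CPM. DST (dystonin) lay between 356 and 642 CPM. COL17A1, the hemidesmosomal collagen of basal epithelial cells, kept the pattern of KRT5 instead, with 48.5, 15.5 and 0.118 CPM against 0.849, 2.37 and 82.7 CPM, and was picked out after its values had been seen.

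Epithelial surface and splicing genes (13 tested, 6 positive, 7 negative, median -0.07) had the FNI replicate 1 and FNI+I-125 replicate 3 pair on top for 10 genes. ERBB3, a neuregulin receptor that Schwann cells also use, lay between 45.0 and 239 CPM, and the protease inhibitor SPINT2 between 29.9 and 88.3 CPM. For the epithelial transcription factors (13 tested, 6 positive, 7 negative, median -0.07), this held for 8 genes. EHF stood at 126, 72.5 and 0.590 CPM against 5.55, 0.486 and 104 CPM, ELF3 at 72.6, 9.94 and 0.118 CPM against 1.18, 0.486 and 85.0 CPM, and KLF5 was highest in FNI replicate 3 at 243 CPM.

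By root mean square distance between log2(CPM + 1) profiles over the 6 libraries, each centred on its own mean, the genes nearest to the mean of KRT5 and TP63 were TRIM29 (0.22), CXCL17 (0.22), ELF3 (0.37), SFN (0.39) and NCCRP1 (0.48). Nearest to the mean of KRT8, KRT18 and KRT19 were GRHL2 (0.41), TMPRSS2 (0.43), EHF (0.47), CLDN4 (0.50) and SCNN1A (0.60). TRIM29 stood at 50.2, 4.59 and 0.236 CPM in the FNI libraries against 0.392, 0 and 84.3 CPM in the FNI+I-125 libraries. GRHL2 stood at 22.5, 13.5 and 0 CPM against 0.783, 0.0608 and 33.4 CPM, with less of a gap between FNI replicate 2 and the highest libraries. The distances describe 6 libraries and were not tested.

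Markers of tissues around the nerve moved with the epithelial genes in some libraries and apart from them in others. The salivary gland list (17 genes with a row, 12 tested, 3 positive and 9 negative fold changes, 0 called) summed to 3653, 58887 and 315 CPM in FNI replicates 1, 2 and 3, and to 853, 72.4 and 254 CPM in FNI+I-125 replicates 1, 2 and 3. The secretory genes led in FNI replicate 2: DNASE1 stood at 48046 CPM, CA6 (salivary carbonic anhydrase) at 8777 CPM and PIP at 1130 CPM. In FNI+I-125 replicate 3, where the keratins were highest, they stood at 13.4, 2.11 and 0.469 CPM. FNI replicate 1 had both, with 2417 CPM of DNASE1. FNI+I-125 replicate 1 had 572 CPM of DNASE1 with KRT8 at 7.64 CPM. All genes of the list had a count in FNI+I-125 replicate 3, and 7 were at 0 in FNI replicate 3.

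Some genes of this list were high in FNI+I-125 replicate 3 instead. TFCP2L1, a transcription factor of ductal epithelium, stood at 83.7, 29.7 and 0.236 CPM in the FNI libraries and at 0.653, 0.0608 and 118 CPM in the FNI+I-125 libraries. ASCL3 and FOXI1, transcription factors of ion-transporting duct cells, reached 9.49 and 6.39 CPM in FNI+I-125 replicate 3 and lay at or under 6.36 and 2.90 CPM in the other libraries, where FNI replicate 2 was the highest. These genes were singled out after their values had been seen. The part of gland tissue in the keratin levels was not tested.

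The skeletal muscle list had 16 genes with a row and 15 tested, all with a positive fold change. edgeR called 0, as for all genes tested. At an unadjusted p under 0.05 in edgeR there were 14, where 17.0% of all genes tested had such a p in either direction. The list summed to 47.5 to 108 CPM in the FNI group and to 5743, 5032 and 29.1 CPM in FNI+I-125 replicates 1, 2 and 3. ACTA1 stood at 2233 and 2198 CPM in FNI+I-125 replicates 1 and 2 and at 2.05 CPM in replicate 3, TTN at 838, 604 and 1.64 CPM and NEB at 423, 365 and 0.527 CPM. The libraries rich in muscle RNA were thus those in which 8 or 9 of the 9 epithelial genes lay under 10 CPM. FNI replicate 3, with 71.5 CPM of the muscle list, had 7 of the 9 genes under 10 CPM. The part of muscle in these levels was not tested.

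Of the nerve's own cells, the 15 myelinating Schwann cell markers all had negative fold changes (median -3.29). edgeR called 0, as for all genes tested. At an unadjusted p under 0.05 in edgeR there were 9, where 17.0% of all genes tested had such a p in either direction. PMP22 ran from 412 to 5615 CPM in the FNI group and from 136 to 424 CPM in the FNI+I-125 group, and PRX from 193 to 2832 CPM and from 12.7 to 187 CPM. The list summed to 3703 to 42873 CPM and to 709 to 3837 CPM, and no marker was at 0. Of 8 non-myelinating and repair Schwann cell markers, 7 had a negative fold change (median -0.57), with NGFR, S100B and SOX10 as the most abundant by mean CPM. Of the mesothelial and perineurial list, 4 genes were tested, 3 with a negative fold change, and SLC2A1, CLDN19 and CLDN1 were all highest in FNI replicate 3, at 583, 380 and 128 CPM. CLDN19 and CLDN1 each stand in a further list. The 7 myeloid markers all had a positive fold change and no overlap between the groups (14.8% of all genes tested were higher without overlap), with CSF1R, CD68 and CD14 the most abundant by mean CPM and sums of 154 to 764 CPM against 1154 to 1769 CPM. Their part in the levels of the 9 genes was not tested.

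**Figure D5:**
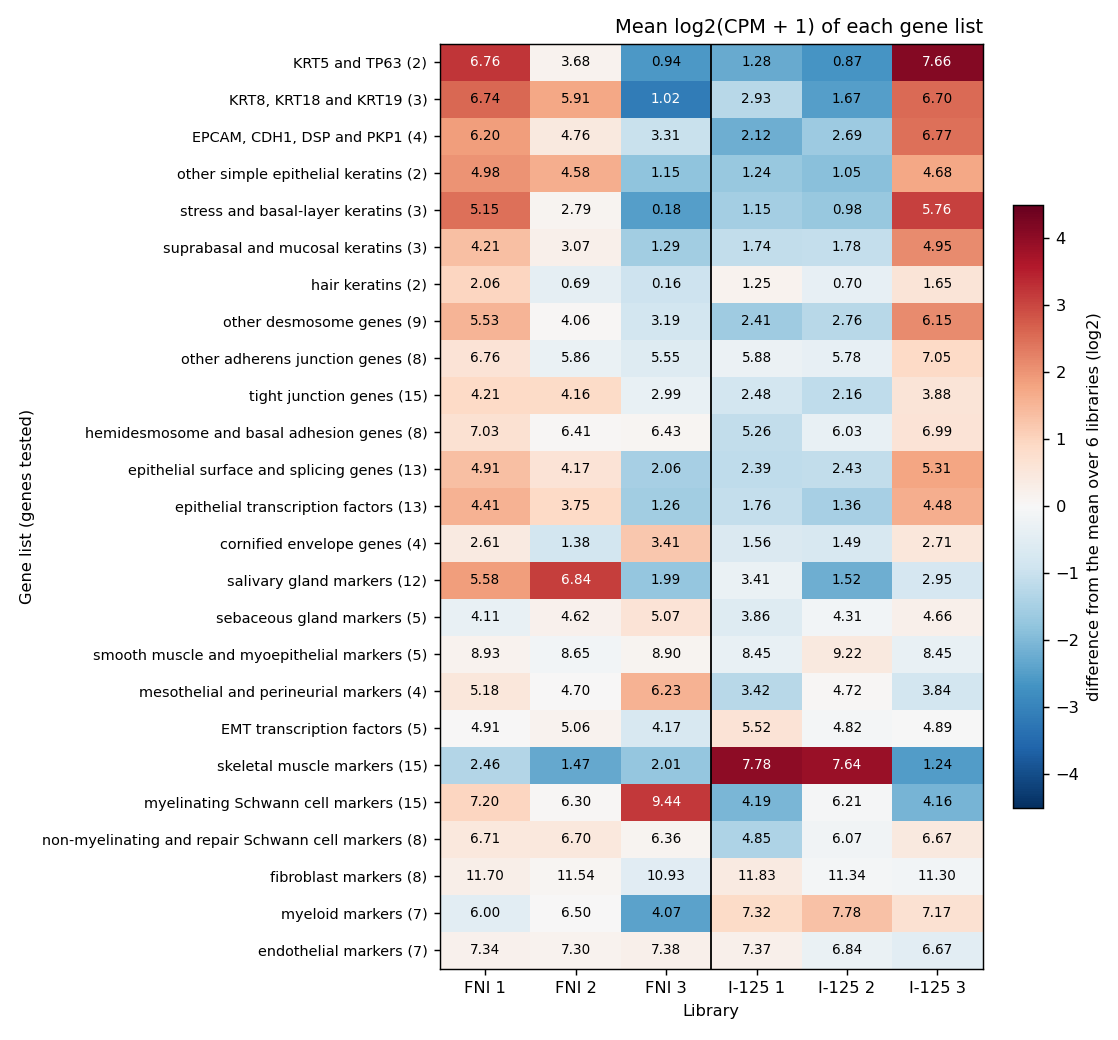
Mean log2(CPM + 1) of each gene list in the 3 FNI and the 3 FNI+I-125 libraries (I-125 1 to 3), with the number of genes tested in brackets. Numbers are the means, and colours show the difference from the mean of the row. The keratin rows are highest in FNI 1 and I-125 3 (6.76 and 7.66 for KRT5 and TP63), the salivary row in FNI 2 (6.84), the myelin row in FNI 3 (9.44) and the muscle row in I-125 1 and I-125 2 (7.78 and 7.64).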

How the data were processed

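The authors enriched mRNA with oligo dT, made stranded Illumina libraries and deposited raw counts, whole numbers of reads per gene in 1 file per library, not normalized. The submitters' processing notes name HISAT2 and the build OryCun2.0, without versions. The counting program, annotation and strand setting are not given in the sources used here. The gene table used for names is of another assembly (mOryCun1.1), so no coordinates are given. It gave a symbol to 542 of 2992 LOC numbers. In 25 rows a date has replaced the gene name (0.188% of counts). These stayed in the fit without being named.

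The main test was edgeR 4.0.16 under R 4.3.3 (glmQLFit and glmQLFTest, filterByExpr with a minimum count of 10, TMM factors 0.923 to 1.06), and limma 3.58.1 and DESeq2 1.42.0 served as alternatives. Tests were two-sided, and the scripts were tested on simulated data. Groups came from the treatment labels. The replicate numbers were not taken as pairs. The deviations from the group means correlated at 0.05, -0.19 and -0.14 for numbers 1, 2 and 3. With 3 libraries per group these values cannot exclude pairing. The 9 genes, the lists and the tests were chosen with earlier results of these data known, so their p-values are no independent evidence. Named genes are the 9, the 3 genes of each list with the highest mean CPM and the 5 nearest in profile to the basal and to the simple genes. The profile nearest to EPCAM was added after the data had been seen. LOC numbers without a symbol were passed over, and some genes that this rule names are not reported here.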

Additional observations from a re-analysis of the deposited data

How the results depend on the processing

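No member was called under any of the alternatives, with a smallest adjusted p of 0.169 over 141 fold changes, of which 115 kept their direction. With limma-voom the log2 fold changes of KRT5, DSP and PKP1 were -1.43, -2.09 and -0.01. With a replicate block, although it is not known whether the numbers pair the libraries, those of KRT5, TP63, KRT19, DSP and PKP1 were -5.25, -0.82, -1.41, -3.36 and -1.22. With this block 1 fold change was positive and 8 were negative, and 0 of the 9 genes passed the threshold. Without both FNI replicate 1 and FNI+I-125 replicate 3, an alternative chosen after seeing the data, those of KRT5, TP63, KRT19, EPCAM, DSP and PKP1 were -4.02, -0.91, -1.01, -0.10, -3.92 and -0.81, and 2 of the 9 genes and 36 of the 74 other epithelial genes (6 higher, 30 lower, 48.6% against 51.0% of all genes) had no overlap. With 1 library left out in turn, the ranges were -7.75 to 4.28 for KRT5, -2.56 to 2.59 for TP63, -4.11 to 0.12 for KRT8, -4.26 to -1.10 for KRT18, -2.92 to 2.18 for KRT19, -1.06 to 1.06 for EPCAM, -3.79 to -0.48 for CDH1, -4.74 to 1.14 for DSP and -2.93 to 2.75 for PKP1, 0 to 2 of the 9 genes were lower without overlap, and 9 to 31 of the 74 other genes had no overlap. The 31 (1 higher, 30 lower), without FNI+I-125 replicate 3, are 41.9% of the 74, where 40.7% of all genes had none, and the 8 with all libraries are 10.8%, where 27.2% had none. The group difference of the basal minus simple index ran from -0.47 to 0.84 with 1 library left out and was 0.14 and 0.51 with pseudocounts of 0.5 and 5. DESeq2 called 2 of the 74 other genes, and edgeR 0. For KRT5, DSP and PKP1, negative with limma-voom, mean CPM was higher in FNI+I-125 (316, 116 and 19.4) than in FNI (212, 92.6 and 12.3). Their mean log2(CPM + 1) was 3.92, 4.24 and 2.83 against 5.06, 6.20 and 2.83. The cause of the shifts between alternatives was not tested. Low counts limit the keratin ratios in FNI replicate 3 and in FNI+I-125 replicates 1 and 2.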

Other observations

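Transcription factors of epithelial-mesenchymal transition, which repress CDH1 in epithelial cells, were measured in every library. Of the 5 tested, 3 had a positive and 2 a negative log2 fold change (median 0.27), and edgeR called 0. SNAI2 stood at 22.6, 31.0 and 11.7 CPM in the FNI libraries and at 72.7, 38.8 and 46.2 CPM in the FNI+I-125 libraries, with no overlap. Its log2 fold change was 1.27 (standard error 0.41, edgeR, unadjusted p = 0.0214, adjusted p = 0.280). Of all genes tested, 14.8% were higher without overlap. ZEB2 lay between 156 and 240 CPM (log2 fold change 0.27) and ZEB1 between 44.7 and 89.4 CPM (-0.48). The relation of these factors to the CDH1 level was not tested.

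Hair keratins were near 0: of 12 genes with a row 2 were tested, KRT75 at no more than 6.55 CPM and KRT32 at no more than 3.72 CPM, and KRT25, untested, reached 3.40 CPM in FNI+I-125 replicate 3. Of 5 sebaceous gland markers tested, 2 had a positive fold change. PLIN2, a lipid droplet coat protein found in many cells, stood at 50.3, 52.7 and 42.6 CPM against 115, 88.8 and 95.8 CPM, CIDEA was highest in FNI replicate 3 at 444 CPM, and SOAT1 lay between 35.1 and 84.7 CPM. The defining sebaceous genes AWAT1 and AWAT2, named after their values were seen, reached 0.768 CPM at most. Of the smooth muscle and myoepithelial markers (5 tested, 2 positive, median -0.16), ACTA2 lay between 640 and 1332 CPM. MYH11 lay between 440 and 1377 CPM and TAGLN between 316 and 510 CPM. Fibroblast markers (8 tested, 6 positive, median 0.26) were led by COL1A1, COL3A1 and COL1A2, and endothelial markers (7 tested, 1 positive, median -0.40) by VWF, PECAM1 and CDH5. edgeR called 0 genes of these lists, as for all genes tested.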
